A study of Mus musculus with 8 samples.

Results

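The genes described here are the 46 genes of the mouse DNA replication machinery, out of 54532 genes in the count table. They were chosen by name, for the step of replication they serve. No rule on their values was used, but earlier results of these data were known. The list holds 6 subunits of the origin recognition complex, 3 licensing genes, the 6 subunits of the MCM2-7 helicase, 6 helicase activation genes and 9 polymerase and primase genes. It also holds 6 clamp and clamp loader genes, 3 subunits of the single-strand binding protein RPA, 2 genes that process and join Okazaki fragments and 5 genes of nucleotide supply. All 46 were matched to the table by gene identifier. Bulk RNA-seq was performed on intestinal organoids, 4 libraries labelled control and 4 labelled RANKL-treated, and the question is how the mRNAs of the replication machinery compare between them. Such organoids grow from isolated crypts embedded in Matrigel and renew themselves from their own stem cells. According to the study's methods they were kept in a medium with the growth factors EGF, NOGGIN and R-spondin. RANKL binds and activates the receptor RANK on epithelial cells. The labels give no strain, sex or age for these 8 libraries, and the sources used here give no dose or duration of RANKL for them. Nothing in the labels says that the 4 libraries of a group came from separate mice or cultures, so the p-values measure only the spread between these libraries, which may be technical.

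A cell replicates its DNA once per cycle. In G1 phase the origin recognition complex, CDC6 and CDT1 load the ring-shaped MCM2-7 helicase at origins, and in S phase CDC45 and the GINS complex turn it into an active helicase, behind which polymerases alpha, delta and epsilon copy both strands with the sliding clamp PCNA. Many of these genes are transcribed under E2F factors when cells enter the cycle, and in the gut they are most active in the dividing stem and transit-amplifying cells of the crypt.

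The libraries were made by 3′ mRNA sequencing, in which each transcript is read near its poly(A) tail, so a count does not scale with transcript length. Total counts on genes ran from 583663 to 7807298 per library, and the controls were on the whole deeper: 583663 to 7807298 against 613135 to 1923354 with RANKL. Levels are given in CPM, counts scaled by the library total and its TMM factor, and values per library are listed in the order of replicates 1 to 4. The floor of 3 counts that a count of 0 allows corresponds to 0.384 to 5.14 CPM depending on the library, and covers counting error only. In a bulk library, fewer dividing cells and less RNA per cell cannot be told apart. Of the 46 genes, 43 passed the filter on low counts and were tested among 9971 genes with edgeR's quasi-likelihood test and Benjamini-Hochberg adjustment at a threshold of 0.05. Gins1, Pole2 and Rpa3 did not pass it, with 67, 71 and 67 counts over the 8 libraries.

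Replication genes were lower in RANKL-treated organoids more often than they were higher. Of the 43 tested, 16 fell, against 12.4% of all genes tested that were lower, and 1, Pold1, rose, against 13.6% of all genes tested that were higher. The other 26 did not pass the threshold. The 16 that fell were Orc1, Gmnn, Mcm3, Mcm7, Mcm10, Pola1, Pold2, Pole, Pcna, Rfc1, Rfc2, Rfc5, Rpa2, Lig1, Rrm2 and Tk1. The falls were modest for most: the median log2 fold change of the 43 was -0.34, a level 21.0% lower, with quartiles of -0.53 and -0.19, whereas the median of all genes tested was 0.0002 with quartiles of -0.26 and 0.26. A negative log2 fold change was fitted for 38 of the 43 genes, or 88.4%, compared with 50% of all genes tested. Leaving out any 1 library gave 12 to 14 genes that fell, and thinning every library to the shallowest total left 7.

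**Figure D1:**
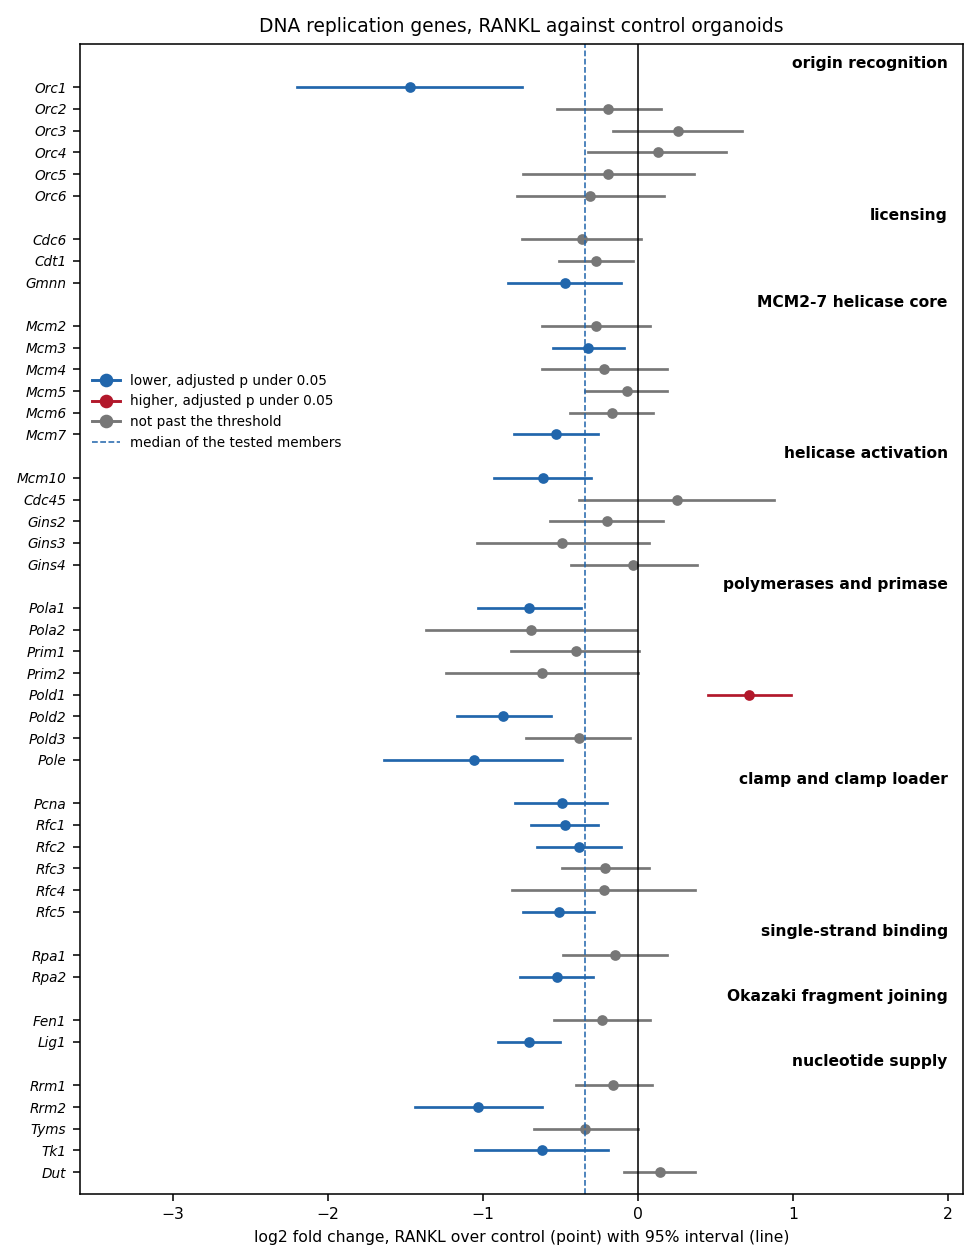
Log2 fold change of each of the 43 tested replication genes (x axis, RANKL over control) with its 95% interval, grouped by role, with the dashed line at the median of the 43 genes. The 16 genes that fell (blue) lie between -1.47 and -0.32, Pold1 (red) stands at 0.72, and the intervals of 21 of the 26 grey genes hold 0.

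The shift was present in each RANKL library. On the log2(CPM + 1) scale, the median replication gene lay below its control mean by a difference of -0.41, -0.36, -0.30 and -0.37 in the RANKL libraries in turn, and 34, 38, 34 and 36 of the 43 genes were below it, while the median over all genes tested lay between 0.003 and 0.013. Together, the 46 genes took 0.353%, 0.342%, 0.364% and 0.376% of the counts in the control libraries and 0.261%, 0.277%, 0.278% and 0.255% in the RANKL libraries. The groups do not overlap in this summed level, which was 3619 ± 187 CPM in control and 2654 ± 132 CPM with RANKL (mean ± SD, n = 4 each). Lig1 alone supplied 28.9% of these counts in control and 24.5% with RANKL, so the sum was also taken without it: 2421 to 2690 CPM in control against 1937 to 2082 CPM with RANKL. By single genes, 14 of the 43 were below every control library in every RANKL library and 1, Pold1, was above, compared with 11.5% and 13.1% of all genes tested, or 24.6% without overlap in either direction. The count of 14 became 12 when levels were scaled by library totals alone, under which the groups overlapped in Mcm7 and Pole.

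**Figure D2:**
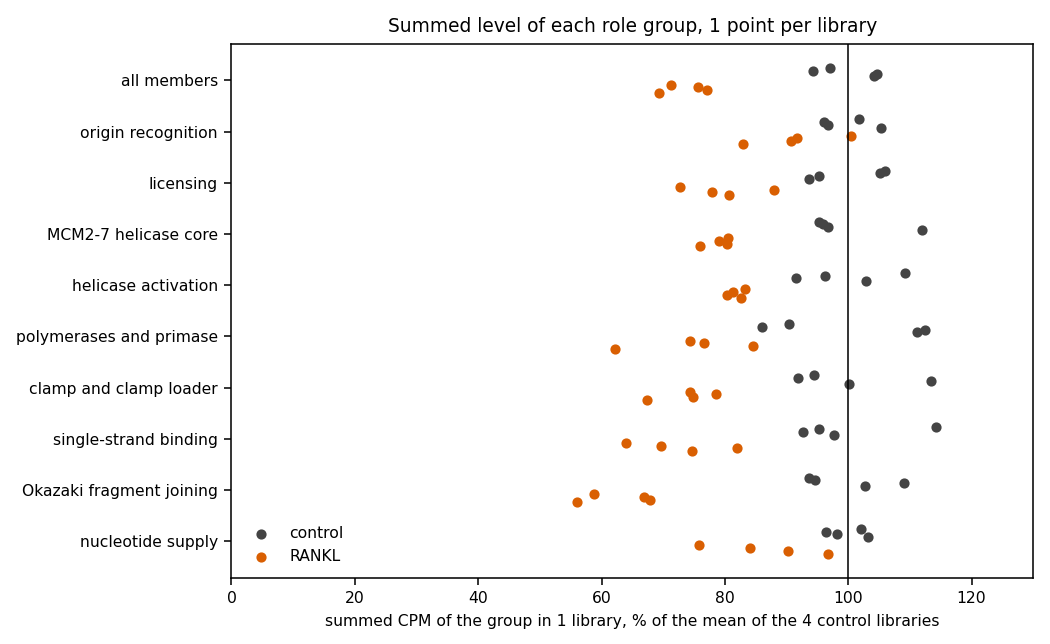
Summed CPM of each role group in each library, as a percentage of the mean of the 4 control libraries (x axis), with control libraries in grey and RANKL libraries in orange. All 4 RANKL libraries lie at 69.3 to 77.1% for all members and below every control library in each group except origin recognition and nucleotide supply, where they reach 100.4% and 96.8%.

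Genes past the threshold were on the whole read more deeply than the others. The 17 genes past it had a median of 1295 counts over the 8 libraries and a median SE of 0.14 in their log2 fold change, whereas the 26 others had a median of 722 counts and a median SE of 0.18. Of those 26, the 95% intervals of 22 held the median of the tested replication genes and the intervals of 21 held 0, so for most of them a fall of the common size and no change could not be told apart at this depth.

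An E2F-type sequence, which was not used to choose the genes, was found in 15 of their promoters. In the RefSeq promoters on GRCm38.p6, from 250 bases before to 50 bases after the start, the motif was searched for on both strands: TTT, then 2 bases that are each C or G, then CGC. Of the 46 genes, 38 had an entry, and 15 of these, or 39.5% (95% Wilson interval 25.6 to 55.3), held a match, against 2.6% of the promoters of 27025 genes and 5.1% of those of 7680 tested genes. The contrast depends on the motif: without its first TT, it was found in 86.8% of these promoters, 39% of all and 68.6% of those of tested genes. The genes with a match to the full motif were Cdc6, Cdt1, Gins3, Lig1, Mcm3, Mcm5, Mcm6, Mcm7, Orc1, Orc3, Pola1, Pold1, Pold3, Pole2 and Rfc3, and in Mcm5 and Mcm6 matches on the 2 strands overlapped each other. A match to it was found in 6 of the 14 genes past the threshold that had an entry and in 8 of the 22 tested genes not past it. It was therefore present in genes that fell, in genes that did not pass the threshold and in Pold1, which rose. The stretches below, 1 from each of 6 role groups, show the match in capitals, written 5′ to 3′ on the strand of the gene. They lie at chr4:108579416-108579445 on the plus strand (Orc1), chr8:122568036-122568064 on the plus strand (Cdt1), chr5:138172030-138172059 on the minus strand (Mcm7), chrX:93632240-93632339 on the minus strand (Pola1), chr5:151651200-151651229 on the minus strand (Rfc3) and chr7:13278841-13278870 on the plus strand (Lig1). The match begins 27 bases before the RefSeq start in Orc1, 165 in Mcm7, 138 in Pola1 and 10 in Rfc3, which holds another at its start, and 32 bases after it in Cdt1 and 26 in Lig1. Mcm7 also holds a match that begins 16 bases after its start, outside the stretch shown. A match is a description of the letters and does not show that a factor binds there.
Orc1: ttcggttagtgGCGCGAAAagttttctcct
Cdt1: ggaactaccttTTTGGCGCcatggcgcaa
Mcm7: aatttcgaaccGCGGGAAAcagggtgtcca
Pola1: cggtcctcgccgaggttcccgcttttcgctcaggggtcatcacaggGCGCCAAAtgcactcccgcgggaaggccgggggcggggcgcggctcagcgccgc
Rfc3: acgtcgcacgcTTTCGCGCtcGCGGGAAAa
Lig1: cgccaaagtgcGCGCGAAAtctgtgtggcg

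In the origin recognition complex, which marks the sites where replication starts, only Orc1 among 6 tested subunits passed the threshold. That is 16.7%, near the 12.4% of all genes tested that were lower. The median log2 fold change of the group was -0.19. Orc1, the subunit whose level is tied to the cell cycle in many cell types, lies at chr4:108579423-108614833 on the plus strand of GRCm38. Orc1 measured 9.68, 10.2, 9.63 and 8.60 CPM in the control libraries and 4.84, 6.19, 3.13 and 1.10 CPM in the RANKL libraries. All RANKL libraries were below all control libraries, although the lowest value rests on 2 counts. Orc1 fell by 1.47 on the log2 scale (SE 0.35, adjusted p = 0.0022), the largest fall among the replication genes. Orc2, the subunit with the most counts, showed no such separation. Orc2 measured 39.5, 29.8, 40.3 and 42.99 CPM in the control libraries and 25.8, 36.5, 33.4 and 32.4 CPM in the RANKL libraries, with a log2 fold change -0.19, 95% interval -0.52 to 0.15. Orc3 measured 16.6, 22.0, 17.5 and 29.2 CPM in the control libraries and 30.7, 19.96, 25.03 and 20.3 CPM in the RANKL libraries, the largest positive value of the group, but the groups overlap (log2 fold change 0.26, adjusted p = 0.39). Orc4, Orc5 and Orc6 had log2 fold changes of 0.13, -0.19 and -0.31 with adjusted p of 0.72, 0.65 and 0.36. The signs of Orc3 and Orc4 are not fixed by these data: Orc3 had a log2 fold change of -0.12 after thinning, and Orc4 one of -0.034 without control replicate 3.

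The licensing genes were lower on average, at a median log2 fold change of -0.36. Of 3, 1 passed the threshold, or 33.3%, beside the 12.4% of all genes tested that were lower. Cdt1 and Cdc6 load the helicase, and geminin, encoded by Gmnn, is the inhibitor that binds CDT1 and prevents a second round. Gmnn measured 31.4, 29.2, 31.4 and 29.2 CPM in the control libraries and 14.5, 26.1, 19.8 and 24.2 CPM in the RANKL libraries. The groups do not overlap, with a narrow control group and a wide RANKL group, and Gmnn fell by 0.47 on the log2 scale (SE 0.18, adjusted p = 0.047). This call is close to the threshold and was lost under 14 of the 16 settings that tested it. Among them were the fits without each library other than RANKL replicate 2, at adjusted p of 0.051 to 0.15, limma-voom (adjusted p = 0.05, just above the threshold), the DESeq2 Wald test (adjusted p = 0.17) and scaling by library totals (adjusted p = 0.064). Cdt1 measured 101, 100.4, 88.4 and 85.99 CPM in the control libraries and 77.5, 86.7, 73.01 and 79.1 CPM in the RANKL libraries. RANKL replicate 2 overlaps the lower controls, and Cdt1 did not pass the threshold (log2 fold change -0.27, 95% interval -0.51 to -0.03, adjusted p = 0.089). It did so without control replicate 3 (adjusted p = 0.04). Cdc6 had a mean of 24.2 ± 2.07 CPM in control and 18.4 ± 3.15 CPM with RANKL (SD, n = 4), with a log2 fold change of -0.36 (adjusted p = 0.16) that turned to 0.10 after thinning.

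The 6 subunits of the MCM2-7 helicase, which unwinds DNA ahead of the fork, all had negative log2 fold changes, with a median of -0.24. Of these, 2 fell, or 33.3%, beside the 12.4% of all genes tested that were lower. Mcm7 measured 172, 219, 277 and 285.5 CPM in the control libraries and 169.5, 171, 169 and 138 CPM in the RANKL libraries. Every RANKL library was below the lowest control, but only just, at 171.4 CPM in RANKL replicate 2 against 171.6 CPM in control replicate 1. The controls themselves spread widely. Mcm7, at chr5:138164583-138172422 on the minus strand, fell by 0.53 on the log2 scale (SE 0.13, adjusted p = 0.0026). Of the windows of 50 bases in the last 500 bases of its transcripts, 32.7% also occur in those of Gm5487, to which 3 counts were assigned in all control libraries together and 0 in the RANKL libraries. Mcm3 measured 157.5, 148, 134 and 177 CPM in the control libraries and 136, 125, 122 and 108 CPM in the RANKL libraries. Control replicate 3 lies below RANKL replicate 1, so the groups overlap, and Mcm3 fell by 0.32 on the log2 scale (SE 0.11, adjusted p = 0.036). The Mcm3 call was lost without RANKL replicate 2, 3 or 4 (adjusted p = 0.068, 0.08 and 0.15) or control replicate 1, 2 or 4 (adjusted p = 0.076, 0.055 and 0.082), as well as with the DESeq2 Wald test (adjusted p = 0.06) and library totals (adjusted p = 0.058). Mcm2, Mcm4, Mcm5 and Mcm6 had log2 fold changes of -0.27, -0.22, -0.07 and -0.17 with adjusted p of 0.26 to 0.73. The signs of Mcm4 and Mcm5 were not fixed: without control replicate 1, they stood at 0.030 and 0.0057, and Mcm5 was at 0.047 after thinning. The summed level of the 6 subunits was nevertheless separate between the groups, at 608 to 714 CPM in control and 484 to 513 CPM with RANKL.

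Among the genes that activate the helicase, Mcm10 fell and the CDC45 and GINS genes did not pass the threshold. MCM10 is a scaffold needed when the loaded helicase is switched on. Mcm10 measured 47.1, 45.4, 53.2 and 51.6 CPM in the control libraries and 35.5, 28.9, 27.1 and 37.9 CPM in the RANKL libraries. No RANKL library reached a control library, and Mcm10 fell by 0.61 on the log2 scale (SE 0.15, adjusted p = 0.0034). Cdc45 and the GINS genes encode the other parts of the active helicase. Cdc45 measured 8.28, 8.32, 5.32 and 6.88 CPM in the control libraries and 12.9, 12.4, 8.34 and 4.39 CPM in the RANKL libraries. RANKL replicates 1 to 3 are above the controls, replicate 3 only just, and replicate 4 is below them, so the difference was smaller than the spread (log2 fold change 0.25, 95% interval -0.38 to 0.88). Gins2, Gins3 and Gins4 had log2 fold changes of -0.20, -0.49 and -0.03 with adjusted p of 0.44, 0.20 and 0.94. The sign of Gins4 turned to 0.18 without RANKL replicate 4 and to 0.0079 without control replicate 1. Gins1, which was not tested, was between 1.72 and 3.49 CPM in the controls and between 1.61 and 4.13 CPM with RANKL.

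The polymerases and primase held the lowest group median and the single rise. Of 8 tested genes, 3 fell (37.5%) and 1 rose (12.5%), beside 12.4% and 13.6% of all genes tested. The median log2 fold change of -0.66 was the lowest of the 9 role groups. Pola1 encodes the catalytic subunit of polymerase alpha, which with primase starts each new strand. Pola1 measured 95.7, 109, 152 and 153 CPM in the control libraries and 71.03, 79.2, 99.1 and 52.7 CPM in the RANKL libraries. RANKL replicate 3 overlaps control replicate 1, and Pola1 fell by 0.70 on the log2 scale (SE 0.16, adjusted p = 0.0015). Pola2, Prim1 and Prim2, its partners, were lower without passing the threshold, at log2 fold changes of -0.69, -0.40 and -0.62 with adjusted p of 0.13 to 0.15. Pole encodes the catalytic subunit of polymerase epsilon, the leading strand enzyme. Pole measured 19.6, 13.2, 33.2 and 34.4 CPM in the control libraries and 8.07, 13.1, 13.04 and 8.24 CPM in the RANKL libraries. The control values fall into a lower and a higher pair, and the lowest control is just above the highest RANKL library. Pole fell by 1.06 on the log2 scale (SE 0.28, adjusted p = 0.0048), with a lowest value that rests on 5 counts. Its small subunit gene Pole2 had too few counts to test, with 0 to 4.29 CPM in the controls and 1.61 to 3.65 CPM with RANKL.

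Polymerase delta, the lagging strand enzyme, showed opposite changes in Pold1 and Pold2. Pold2 and Pold3 encode accessory subunits and Pold1 the catalytic subunit. Pold2 measured 67.99, 55.3, 75.8 and 75.7 CPM in the control libraries and 48.4, 37.9, 35.98 and 31.9 CPM in the RANKL libraries. The groups are well apart, and Pold2 fell by 0.87 on the log2 scale (SE 0.15, adjusted p = 5e-05). Pold3 was 37.7 ± 4.04 CPM in control and 29.0 ± 5.06 CPM with RANKL (SD, n = 4), with a log2 fold change of -0.38 that did not pass the threshold (adjusted p = 0.086). Pold1 measured 44.4, 39.5, 47.9 and 44.7 CPM in the control libraries and 62.96, 80.5, 76.7 and 66.5 CPM in the RANKL libraries. Every RANKL library was above every control library, and Pold1 rose by 0.72 on the log2 scale (SE 0.13, adjusted p = 0.0001), a call that held under each of the alternatives tried.

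The rise of Pold1 came with a far larger change next to it. Pold1 lies at chr7:44532746-44548849 on the minus strand, and the gene Spib at chr7:44525993-44532071 on the same strand lies 674 bases past its 3′ end. Spib, which was looked at only after its values were seen, encodes a transcription factor of M cells that RANKL is known to induce. Spib measured 4.58, 5.37, 2.28 and 5.16 CPM in the control libraries and 1489, 1654, 1760 and 1527 CPM in the RANKL libraries. Its log2 fold change was 8.56 (SE 0.16, adjusted p = 4.8e-27). In CPM, Pold1 differed by 27.5 and Spib by 1603. On the minus strand, the 3′ end of Spib is at chr7:44525993, its end farther from Pold1. Among the 46 replication genes, Pold1 was the only one with another gene within 1000 bases downstream on its own strand in the GENCODE M21 annotation. The counts are per gene and do not show where within Pold1 the reads lie. The part of Spib in the value of Pold1 was not tested.

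**Figure D3:**
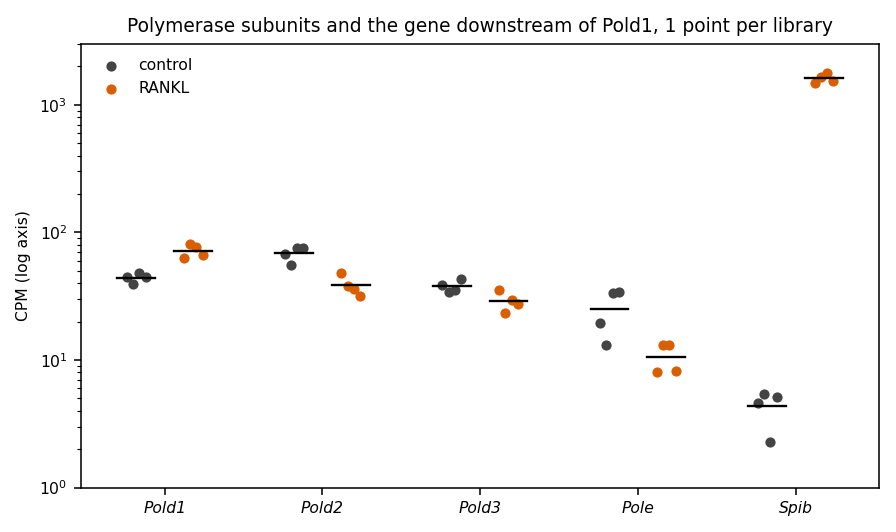
CPM (y axis, log scale) of the polymerase delta genes Pold1, Pold2 and Pold3, of Pole and of Spib in each control library (grey) and RANKL library (orange), with bars at the group means. Pold1 moves from a mean of 44.1 to 71.7 CPM, opposite to Pold2 and Pole, while Spib downstream of it moves from 4.35 to 1607 CPM.

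In the clamp and clamp loader group, 4 of 6 tested genes fell, or 3 with either DESeq2 or limma-voom, and the median log2 fold change was -0.43. The 4 genes make up 66.7%, beside the 12.4% of all genes tested that were lower. PCNA is the ring that tethers polymerases to DNA, and replication factor C, encoded by Rfc1 to Rfc5, opens and loads it. Pcna measured 63.02, 53.7, 67.9 and 61.9 CPM in the control libraries and 40.4, 46.1, 52.1 and 35.1 CPM in the RANKL libraries. The highest RANKL library is just below the lowest control, and Pcna fell by 0.49 on the log2 scale (SE 0.14, adjusted p = 0.012). The call was lost without RANKL replicate 4 (log2 fold change -0.38, adjusted p = 0.089) and after thinning (-0.23, adjusted p = 0.5).

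The loader subunits with the most counts moved together. Rfc5 measured 187.5, 189, 244 and 220.1 CPM in the control libraries and 157, 160.4, 148 and 127 CPM in the RANKL libraries. Rfc1 measured 197, 182.5, 207 and 209.8 CPM in the control libraries and 147, 151, 143 and 130.2 CPM in the RANKL libraries. Both are separated from the controls in every library, and they were among the genes measured with the smallest errors. Rfc5 fell by 0.51 on the log2 scale (SE 0.11, adjusted p = 0.001), and Rfc1 fell by 0.47 on the log2 scale (SE 0.10, adjusted p = 0.00084). Rfc2 measured 93.96, 105, 144 and 94.6 CPM in the control libraries and 74.3, 88.8, 85.5 and 87.9 CPM in the RANKL libraries. The groups do not overlap, but control replicate 3 is far above the other controls. Rfc2 fell by 0.38 on the log2 scale (SE 0.13, adjusted p = 0.033), and without control replicate 3 the value was -0.21 (adjusted p = 0.21). Without RANKL replicate 1, 2, 3 or 4 the Rfc2 call was also lost, at adjusted p of 0.085, 0.06, 0.072 and 0.062, as it was with the DESeq2 Wald test (adjusted p = 0.1) and limma-voom (adjusted p = 0.062). Rfc3 and Rfc4 had log2 fold changes of -0.21 and -0.22 with adjusted p of 0.29 and 0.63.

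The trimeric protein RPA covers single-stranded DNA behind the helicase. Rpa2 measured 204, 166, 161 and 156.5 CPM in the control libraries and 109.8, 109, 139 and 122 CPM in the RANKL libraries. All RANKL libraries were below all controls, and Rpa2 fell by 0.52 on the log2 scale (SE 0.12, adjusted p = 0.00095). Rpa1, the large subunit, did not pass the threshold (log2 fold change -0.15, 95% interval -0.48 to 0.19). Rpa3, the smallest subunit, was not tested, with 1.88 to 8.60 CPM in the controls and 1.61 to 5.74 CPM with RANKL, and 22.4% of the 50-base windows near its 3′ end also occur in other genes.

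Lig1 encodes DNA ligase 1, which seals Okazaki fragments, and had by far the most counts of the replication genes, 20407 over the 8 libraries. Lig1 measured 982, 989.9, 1163 and 1080 CPM in the control libraries and 612, 701, 706 and 571 CPM in the RANKL libraries. The highest RANKL library was below the lowest control by more than the range of either group. Lig1, at chr7:13277283-13311433 on the plus strand, fell by 0.70 on the log2 scale (SE 0.10, adjusted p = 1.9e-06), the smallest adjusted p among the replication genes. No 50-base window near its 3′ end was shared with another gene. Fen1, the nuclease that trims the fragments before ligation, was 49.6 ± 6.57 CPM in control and 41.1 ± 5.07 CPM with RANKL (SD, n = 4) and did not pass the threshold (log2 fold change -0.23, 95% interval -0.54 to 0.08).

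Of the 5 genes of nucleotide supply, 2 fell (40%), beside the 12.4% of all genes tested that were lower. The median log2 fold change of the group was -0.34. Rrm2 is the regulated small subunit of ribonucleotide reductase, which makes deoxynucleotides. Rrm2 measured 29.3, 23.4, 34.5 and 34.4 CPM in the control libraries and 9.69, 13.1, 16.2 and 15.9 CPM in the RANKL libraries. The RANKL values were all below the controls, although the lowest rests on 6 counts. Rrm2 fell by 1.03 on the log2 scale (SE 0.20, adjusted p = 0.00025). Rrm1, the large subunit of the same enzyme, had a log2 fold change of -0.16 (95% interval -0.40 to 0.09, adjusted p = 0.37). Tk1 encodes the thymidine kinase of dividing cells. Tk1 measured 22.03, 18.2, 22.8 and 18.9 CPM in the control libraries and 8.07, 15.1, 13.04 and 15.4 CPM in the RANKL libraries. The groups do not overlap, although the lowest value rests on 5 counts. Tk1 fell by 0.62 on the log2 scale (SE 0.21, adjusted p = 0.03). Its call was lost without RANKL replicate 1 or 3 (adjusted p = 0.076 and 0.085), without control replicate 1 or 3 (adjusted p = 0.069 and 0.055) and with the DESeq2 Wald test (adjusted p = 0.14). Tyms encodes thymidylate synthase, which makes the thymidine nucleotide. Tyms measured 55.4, 48.8, 48.9 and 70.5 CPM in the control libraries and 27.4, 34.4, 42.8 and 56.02 CPM in the RANKL libraries. RANKL replicate 4 stands among the controls, and Tyms did not pass the threshold (log2 fold change -0.34, adjusted p = 0.13), but did so without that library (log2 fold change -0.55, adjusted p = 0.027). Dut, the dUTPase that keeps uracil out of DNA, had the most counts of the group. Dut measured 115, 98.5, 93.0 and 85.99 CPM in the control libraries and 107, 111, 107 and 116 CPM in the RANKL libraries. The groups overlap, and the log2 fold change was 0.14 (95% interval -0.09 to 0.37).

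**Figure D4:**
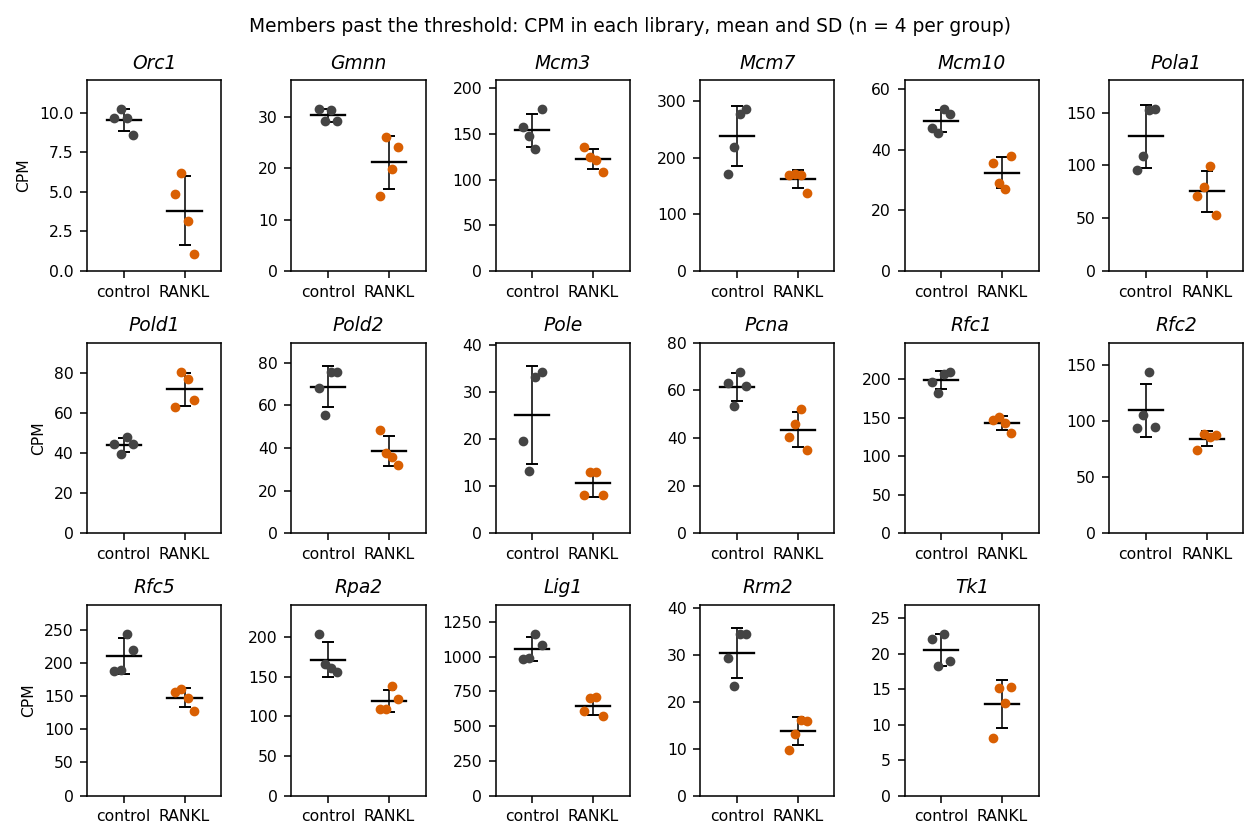
CPM (y axis, starting at 0) of the 17 replication genes past the threshold in each control library (grey) and RANKL library (orange), with the mean as a bar and the SD as an error bar (n = 4 per group). The groups are separate in all of them except Mcm3 and Pola1, though only narrowly in Mcm7 and Pole. Pold1 is the only one in which the RANKL libraries are the higher ones.

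The exact two-sided permutation test of the difference of mean CPM, which rests on no count model, reached its smallest possible value of 0.0286 over 70 assignments for 15 replication genes. That value is reached only where the groups do not overlap, so it restates the separation of single genes counted above. Of all genes tested, 24.6% had no overlap in either direction. The 15 genes are the 17 past the threshold other than Mcm3 and Pola1, for which the exact permutation test gave 0.0571. By the standard of leaving out libraries and changing the tool, scaling, filter or depth, 8 of the 17 kept their call under each setting that tested them (Orc1, Mcm7, Pold1, Pold2, Rfc5, Rpa2, Lig1 and Rrm2). Of these, Orc1 was not tested after thinning, and neither Orc1 nor Rrm2 was tested with at least 10 counts in every library. Mcm10, Pola1, Pole and Rfc1 lost their call only after thinning, at adjusted p of 0.13, 0.051, 0.072 and 0.073. Pole, too, was not tested with at least 10 counts in every library.

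Other genes of S phase and the cell cycle were set beside the replication machinery. Over all genes tested, 12.4% were lower and 13.6% were higher. In the list of origin firing and fork genes, 7 of 26 tested genes fell and 0 rose with edgeR, with a median log2 fold change of -0.20, and 0 were higher at an unadjusted p under 0.05, with DESeq2 or with limma-voom. Dna2, a nuclease and helicase of Okazaki fragments, had a log2 fold change of -0.92 (SE 0.15, adjusted p = 1.6e-05), the origin firing gene Mtbp one of -0.91 (SE 0.31, adjusted p = 0.027) and Wdhd1, a fork scaffold, one of -0.67 (SE 0.13, adjusted p = 0.00019). In chromatin replication, 3 of 10 fell and 1 rose (median -0.23). The histone chaperone subunits Chaf1b and Chaf1a had log2 fold changes of -0.66 and -0.43 (adjusted p = 0.036 and 0.012), whereas the histone-binding gene Rbbp4 rose by 0.46 on the log2 scale (adjusted p = 0.0071). In nucleotide synthesis, 8 of 29 fell and 2 rose (median -0.25). Impdh1 of guanine nucleotide synthesis and Cad of pyrimidine synthesis had log2 fold changes of -1.26 and -0.91 (adjusted p = 0.0005 and 0.00098), and the genes that rose were Shmt1, of folate metabolism, at 0.75 and Nudt1, which removes oxidised nucleotides, at 0.37 (adjusted p = 2.8e-06 and 0.0069).

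The lists of checkpoint and cell cycle genes held falls at shares of 10 to 22.2%, beside the 12.4% of all genes tested that were lower. Of 20 fork checkpoint and repair genes, 2 fell and 0 rose with edgeR (median -0.26), and 0 were higher at an unadjusted p under 0.05, with DESeq2 or with limma-voom. The repair gene Brca2 had a log2 fold change of -0.51 (SE 0.19, adjusted p = 0.043). Of 27 tested genes of G1/S control, 6 fell and 2 rose (median -0.21). The repressor E2f8 fell by 1.26 and the growth regulator Myc by 0.91 on the log2 scale (adjusted p = 3.8e-06 and 0.029), whereas Mybl2, a cell cycle transcription factor, and Cdkn1a, the inhibitor p21, rose by 1.06 and 0.40 (adjusted p = 0.0006 and 0.0072). Of 35 tested mitosis genes, 7 fell and 0 rose with edgeR (median -0.22), with 2 higher at an unadjusted p under 0.05 and 0 with DESeq2 or limma-voom. They included the mitotic kinase gene Nek2 at -0.98, the spindle motor gene Kif11 at -0.59 and the spindle checkpoint gene Bub1b at -0.52 on the log2 scale (adjusted p = 0.034, 0.013 and 0.038). These counts vary with single libraries. The count of 0 genes that rose became 1 for origin firing and fork without control replicate 2, and 1 for mitosis without control replicate 1. The lower counts ran from 4 to 7 for origin firing and fork (4 without RANKL replicate 2 or 4 or control replicate 2), 1 to 4 for chromatin (1 without RANKL replicate 2), 5 to 8 for nucleotide synthesis (5 without RANKL replicate 4), 0 to 4 for checkpoint and repair (0 without RANKL replicate 1 or control replicate 1 or 4, 1 without control replicate 2, 4 without control replicate 3) and 4 to 9 for mitosis (4 without RANKL replicate 1 or 2 or control replicate 4). No difference between a list and the replication machinery was tested.

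**Figure D5:**
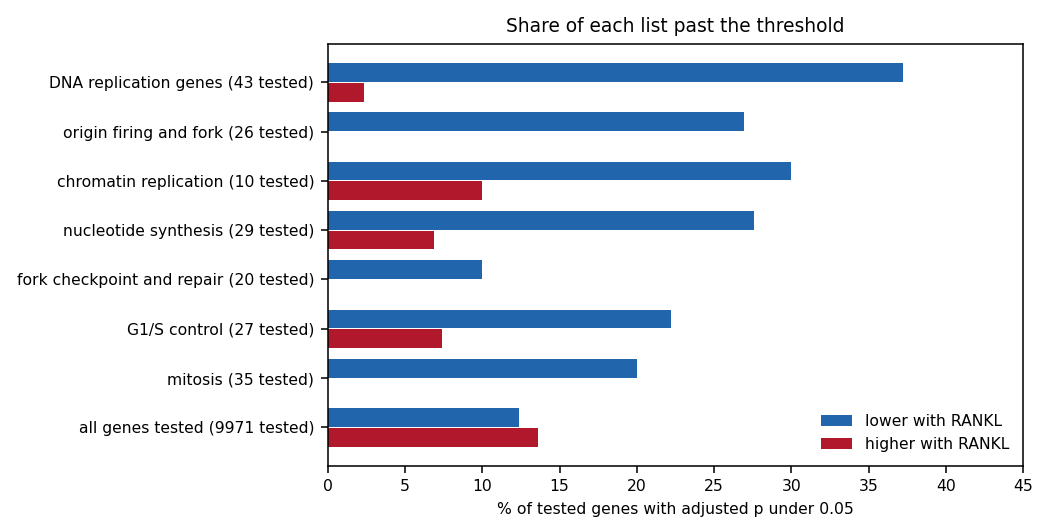
Percentage of the tested genes of each list (x axis) with an adjusted p under 0.05, lower (blue) or higher (red) with RANKL, with the number tested in brackets. The replication genes stand at 37.2% lower and 2.33% higher, and all genes tested at 12.4% and 13.6%.

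Markers of stem cells and M cells moved between the groups, and few other markers did. Of all genes tested, 12.4% were lower and 13.6% were higher. Of 6 stem cell markers, 4 fell and 1 rose: Lgr5, Smoc2, Axin2 and Ephb2 had log2 fold changes of -2.22, -0.76, -0.90 and -0.76, Ascl2 rose by 1.10 on the log2 scale, and Olfm4, at -0.18, did not pass the threshold. Their summed level was 1378 to 1802 CPM in control and 1138 to 1319 CPM with RANKL, means of 1570 and 1272 CPM. Most of this sum was Olfm4, at means of 1162 CPM in control and 1026 CPM with RANKL. The part of the stem cell markers in the levels of the replication genes was not tested. All 4 tested M cell markers rose, with a summed level of 35.7 to 41.6 CPM in control and 1650 to 1905 CPM with RANKL, of which Spib was most, while Gp2, a marker of mature M cells, was at 0 counts in all 8 libraries. Of the markers of other epithelial types, 1 of 6 general epithelial markers fell (Krt18), 1 of 6 enterocyte markers rose (Apoa1), 1 of 5 Paneth markers fell (Defa17), and 0 of 5 goblet, 0 of 5 enteroendocrine and 0 of 1 tested tuft markers passed edgeR's threshold, against 1, 0 and 0 at an unadjusted p under 0.05 and 0 in each with DESeq2 and limma-voom. The mesenchymal, immune and endothelial lists had no gene with enough counts to test. Dcn, Cd3e, Cdh5 and Kdr were at 0 in every library, and the summed levels of these lists reached at most 15.5, 4.84 and 3.44 CPM in any library.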

How the data were processed

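RNA from 8 libraries of mouse intestinal organoids, 4 control and 4 RANKL, was sequenced by the authors with a 3′ mRNA kit as single reads of 50 bases. According to the study's methods, reads were trimmed, cleared of ribosomal, mitochondrial and adapter sequences, aligned with STAR to GRCm38 and assigned to Ensembl genes by featureCounts with strand. The deposited values are raw counts per gene, without normalization. All 8 columns were assigned to samples by their labels. Of 54532 gene identifiers, 54409 had a symbol in the reference (all but 0.0193% of the counts). No molecular identifiers are mentioned, so PCR copies count as reads.

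RANKL was compared with control with edgeR 4.0.16 in R 4.3.3 (TMM factors, filterByExpr, quasi-likelihood test, Benjamini-Hochberg adjustment over all 9971 genes tested). The SE is the size of the log2 fold change over the square root of F. A two-sided exact permutation test of mean CPM was added for single genes. The alternatives were DESeq2 1.42.0 size factors, library totals, the DESeq2 Wald test, limma-voom (limma 3.58.1), no filter, a minimum of 10 counts per library, a replicate block, each library left out, both shallowest libraries left out, an adjusted p of 0.01 and a fold of at least 1.5. Thinning every library to the shallowest total, by 1 random draw, was chosen after seeing the data. The fits were tested on simulated counts.

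The 46 genes and all lists were chosen with earlier results of these data known. All 46 genes are named. Values per library are given for the gene with the most counts and the largest rise and fall of each role group, each gene past the threshold, and each whose call changed with the tool, the scaling or the block. From each comparison list, up to 3 genes past the threshold with the largest change at a mean of at least 5 CPM are named, with those against the list's median. Some genes that this rule names are not reported here. Spib is outside the rule. Gene positions, neighbours and transcript ends come from GENCODE M21 on GRCm38, and promoters from RefSeq on GRCm38.p6, in which Gins1, Gins2, Gins4, Gmnn, Mcm4, Pole, Prim2 and Rfc2 had no entry. Tables were handled in Python 3.11.15.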

Additional observations from a re-analysis of the deposited data

Results flagged for a closer look

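In each group of 4 libraries, the CPM of each of the 46 replication genes was searched for a highest or lowest library that stood apart, by the gap to the nearest other library over the range of the group (Dixon's test at the 95% level). Of 92 such groups, 6 passed, where chance alone gives about 1 in 20, or 4.6. RANKL replicate 4 stood apart in 3 genes: low in Mcm7, at 138 CPM (252 counts) with the next library at 169 CPM, low in Gins4, at 13.7 CPM (25 counts) with the next at 24.1 CPM, and high in Gins2, at 42.3 CPM (77 counts) with the next at 32.3 CPM. Control replicate 4, the shallowest library, stood apart in 2: low in Prim1, at 13.8 CPM (8 counts) with the next at 22.0 CPM, and high in Rpa3, at 8.60 CPM (5 counts) with the next at 2.79 CPM. In Fen1, control replicate 3 was low at 39.8 CPM (157 counts), with the next control at 51.8 CPM. Mcm7 is the only one of these genes past the threshold, and its call held without RANKL replicate 4. The causes were not tested.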

How the results depend on the processing

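The median log2 fold change of the replication genes was negative under all alternatives, between -0.38 and -0.25, the latter with at least 10 counts in every library. The number that fell was 16 with the replicate numbers as a block, 12 with the DESeq2 Wald test, 14 with limma-voom, 12 to 14 without 1 library, 7 after thinning to the shallowest total (36 of the genes tested) and 8 with a fold of at least 1.5, and Pold1 was the 1 that rose each time. Over all genes, the number higher was 764 after thinning and 857 with a fold of at least 1.5, and 1039 to 1367 without 1 library. The number lower was 637 after thinning, 707 at an adjusted p of 0.01, 587 with a fold of at least 1.5 and 814 to 1234 without 1 library, lowest without RANKL replicate 4. For single genes, 654 values kept their direction and side of the threshold, 45 lost and 3 gained a call, and 9 changed sign, all in genes not past the threshold: Orc3 (-0.12), Cdc6 (0.10) and Mcm5 (0.047) after thinning, Gins4 (0.10) with the block, and 4 genes when a library was left out, Orc4 (-0.034 without control replicate 3 to 0.29), Mcm4 (-0.39 to 0.030 without control replicate 1), Mcm5 (-0.15 to 0.0057 without control replicate 1) and Gins4 (-0.14 to 0.18, highest without RANKL replicate 4, and 0.0079 without control replicate 1). The causes were not tested. The median log2 fold change of all genes was 0.0002 with TMM factors, -0.0007 with DESeq2 size factors and 0.0245 with library totals alone.

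Correlations of deviations of same-numbered libraries ran from -0.03 to 0.10, and those of differently numbered libraries from -0.13 to 0.09. The labels do not say whether a shared replicate number marks a pair. Weak correlations cannot decide it, because libraries of unlike depth could share a culture and still correlate weakly. With the replicate block, Tyms gained a call (adjusted p = 0.026) and Gmnn lost it (adjusted p = 0.051). The E2F-type motif without its first TT was found in 86.8% of the replication gene promoters. The depth limits genes of few counts most: in the shallowest control, 1 of the 46 genes had 0 counts, which allows up to 5.14 CPM.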
